A study of Caenorhabditis elegans with 12 samples.

Results

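DAF-12 is the nuclear receptor through which a steroid hormone decides between reproductive growth and dauer arrest in Caenorhabditis elegans. The genes described here are the 8 genes of its pathway, chosen by name from among 46925 genes in the files, with earlier results of these data known. Worms cannot make sterols and take cholesterol from food. NCR-1 and NCR-2, homologs of the human Niemann-Pick C1 protein, move it inside cells. The Rieske oxygenase DAF-36, the short-chain dehydrogenase DHS-16, the hydroxysteroid dehydrogenase homolog HSD-1 and the cytochrome DAF-9 act in the making of dafachronic acids, the ligands of DAF-12. DIN-1 is the co-repressor that DAF-12 binds when no ligand is present. The pathway is known for its part in dauer formation, developmental timing and the long life of worms that lack a germ line.

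RNA from whole worms was sequenced in 12 libraries, 3 in each of 4 groups. These were sams-1 animals at day 7 of adulthood (D7), wild-type (WT) animals at D7, sams-1 animals at day 1 (D1) and WT animals at D1. SAMS-1 is a synthase of S-adenosylmethionine, the methyl donor. All animals were grown on HT115 bacteria. The sample titles name the tested libraries sams1 while their treatment label reads RNAi and their genotype label wild type, and the study's methods describe a loss-of-function strain, sams-1(ok3033). Which of these reduced the gene cannot be told apart from the labels, so "sams-1" below means the libraries labelled sams-1. The replicates carry the numbers 1, 3 and 5 and are given in that order. The study describes its replicates as biologically independent.

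Library totals ranged between 3939015 and 7568375 expected counts. Levels of a gene across libraries are given as CPM, its counts as a share of the library scaled by edgeR's TMM factors, and comparisons between genes as TPM, the share of transcripts, which allows for length. The sams-1 gene itself went against the label. It measured 35.7, 72.4 and 51.4 CPM in sams-1 D7 libraries, against 13.2, 20.02 and 17.6 CPM in WT D7 libraries, and 228, 231 and 246 CPM in sams-1 D1 libraries, against 163, 102 and 181 CPM in WT D1 libraries. The desaturase gene fat-7 separated the libraries by label, with 92.3 to 172 CPM in sams-1 D7 and 134 to 400.4 CPM in sams-1 D1, against 11.8 to 14.7 CPM in WT D7 and 7.09 to 19.4 CPM in WT D1. One library, sams-1 D1 replicate 1, stood apart from the other sams-1 D1 libraries in markers of the epidermis and of reproduction. Cuticle and other epidermis markers summed to 3339 CPM in it, against 8102 and 11455 CPM in replicates 3 and 5. Yolk genes with the yolk receptor rme-2 summed to 19502 CPM in it, against 5208 and 2560 CPM. WT D1 libraries also spread in such markers. Over replicates 1, 3 and 5 their yolk sums were 24948, 12058 and 8693 CPM and their sperm marker sums 28.7, 49.9 and 237 CPM. The D1 tests of the 8 genes and the D1 counts of gene lists are given with and without sams-1 D1 replicate 1. Without it, 2705 of all 13721 genes tested at D1 were higher in sams-1 and 3694 lower (edgeR, adjusted p under 0.01). That background applies to each count given without it.

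The 8 genes lay on 5 chromosomes (WBcel235, Ensembl release 115). The receptor gene daf-12 (WBGene00000908) spans X:10635908-10666875 on the plus strand and has 10 annotated transcripts of 2085 to 3859 bases. daf-9 (WBGene00000905) spans X:6196927-6200823 on the plus strand with 3 transcripts of 1674 to 1999 bases, and ncr-1 (WBGene00003561) spans X:4472244-4488857 on the minus strand. daf-36 (WBGene00007536) is at V:10223513-10225710 on the minus strand and shares 9 exon bases with C12D8.20 on the other strand. dhs-16 (WBGene00000979) is at V:5983745-5985509 on the plus strand and shares 74 exon bases with C10F3.7 on the other strand. hsd-1 (WBGene00012394) is at I:13720125-13724453 on the minus strand, and ncr-2 (WBGene00003562) at III:8258345-8265805 on the plus strand. din-1 (WBGene00008549) spans II:11614770-11633609 on the minus strand, has 7 transcripts of 561 to 7224 bases, and shares 150 exon bases with the non-coding gene F07A11.10 and 54 with the small nucleolar RNA gene F07A11.15, both on the other strand. Whether the counting used strand is not stated in the sources used here, so reads of these overlapping stretches cannot be told apart.

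The genes differed widely in level. In sams-1 D7 libraries din-1 stood highest with 43.1 ± 3.61 TPM (SD, n = 3), followed by daf-12 with 26.8 ± 7.58 TPM and daf-36 with 25.9 ± 3.89 TPM, whose ranges overlapped. ncr-1 followed with 10.7 ± 3.31 TPM. dhs-16, daf-9 and ncr-2 had 0.97, 0.35 and 0.31 TPM, with overlapping ranges between neighbours. In WT D7 libraries din-1 was again highest at 36.7 ± 1.91 TPM, daf-12 had 6.40 ± 1.10 TPM, and ncr-1 and daf-36 overlapped at 3.20 and 2.96 TPM. In sams-1 D1 libraries din-1 (43.3 ± 22.8 TPM), daf-36 (22 ± 10.0 TPM) and daf-12 (21.7 ± 8.95 TPM) could not be ordered beyond their spread. In WT D1 libraries the top of the order was din-1 (30.9 ± 3.23 TPM), daf-12 (7.71 ± 2.79 TPM), daf-36 (3.79 ± 0.75 TPM) and ncr-1 (1.27 ± 0.48 TPM), with no overlap between neighbours. daf-36 thus stood beside daf-12 in both sams-1 groups, while in both WT groups it lay below daf-12 in level per length, with no overlap.

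hsd-1, a hydroxysteroid dehydrogenase gene known from the paired XXX neuroendocrine cells of the head, was not detected at this depth outside 1 library. It had 1 count in 1 sams-1 D7 library and 0 in the other 11 libraries. A count of 0 over a group allows up to 3 counts, which is 0.163 CPM in WT D7, 0.163 CPM in sams-1 D1 and 0.168 CPM in WT D1. Markers of the same cells were as scarce. sdf-9, eak-3, eak-4 and eak-6 together had 26 counts in sams-1 D7, 6 in WT D7, 9 in sams-1 D1 and 1 in WT D1, and none of the 4 reached the count minimum for testing. Such counting limits cover counting error only.

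**Figure D1:**
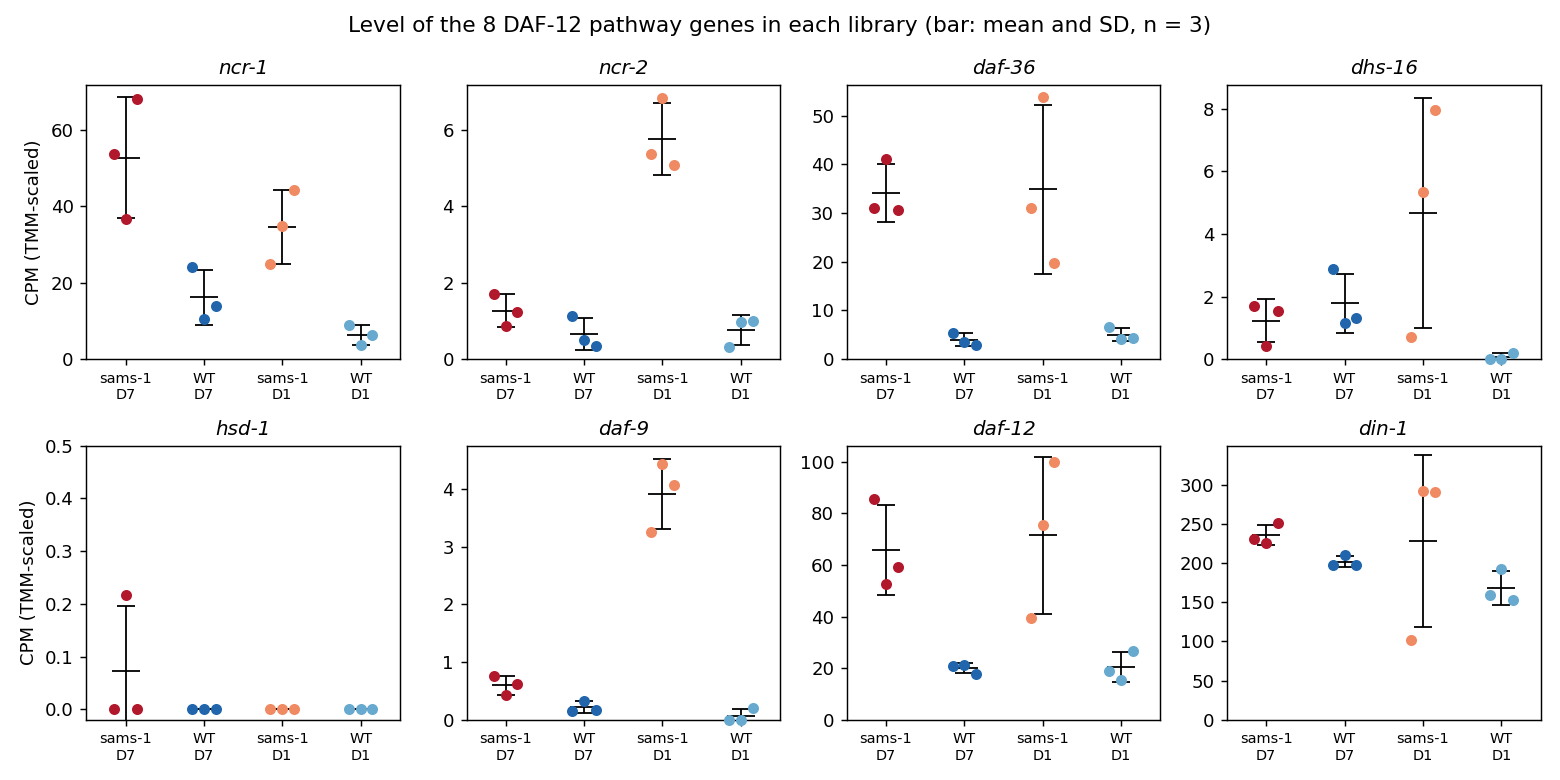
Level of each gene in CPM (linear axis, a separate scale for each gene) in every library of the 4 groups, with the mean and SD as bars. daf-36, ncr-1 and daf-12 sit higher in sams-1 than in WT libraries at both ages, daf-9 and ncr-2 stand out in sams-1 D1, hsd-1 is at 0 in all but 1 library, and for din-1 the sams-1 and WT libraries overlap at D1.

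The first comparison asked how the pathway differed by genotype in older adults. At D7, 3 of the 5 genes with enough counts to test were higher in sams-1 and none was lower (edgeR quasi-likelihood test, adjusted p under 0.01 over all genes). These were the oxygenase gene daf-36, the receptor gene daf-12 and the transporter gene ncr-1. The background was high, since 35.6% of the 12242 genes tested were called higher and 29.4% were called lower, and the all-gene median on the log2 scale was 0.13. In genes, this was 4356 higher and 3597 lower, against 5369 and 2003 under upper-quartile factors (all-gene median 0.58) and 4956 and 2593 under library totals (0.40). By an unadjusted p under 0.05, 4 of the 5 were higher and 0 lower. The share of all genes at that limit was not computed, so this count shows nothing particular to these genes. DESeq2 called 3 higher and 0 lower, beside 4288 higher and 3914 lower of all 12242 genes.

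daf-36, whose product turns cholesterol into the first intermediate of the hormone, measured 31.0, 41.05 and 30.6 CPM in sams-1 D7 libraries, against 5.41, 3.504 and 2.95 CPM in WT D7 libraries. Every sams-1 library was far above every WT library. By edgeR the gene was 9.03-fold higher, a log2 fold change of 3.18 with an SE of 0.27 and an adjusted p of 1.2e-05.

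daf-12 measured 85.6, 52.5 and 59.2 CPM in sams-1 D7 libraries, against 20.7, 21.4 and 17.9 CPM in WT D7 libraries. The groups did not overlap, and the WT libraries lay close together. The receptor gene was 3.47-fold higher, with a log2 value of 1.80 ± 0.21 (SE) and an edgeR adjusted p of 5.5e-05.

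ncr-1, the more abundant of the 2 cholesterol transporter genes, measured 53.6, 36.5 and 68.0 CPM in sams-1 D7 libraries, against 24.0, 10.3 and 13.9 CPM in WT D7 libraries. The lowest sams-1 library was above the highest WT library. On the log2 scale it was higher by 1.79 ± 0.32 (SE), with an edgeR adjusted p of 0.00072.

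din-1, the co-repressor gene, measured 231, 225 and 251 CPM in sams-1 D7 libraries, against 198, 210 and 197 CPM in WT D7 libraries. The groups did not overlap, but the difference was small. Its difference of 0.30 ± 0.10 (SE) on the log2 scale did not pass the test (adjusted p = 0.0234 by edgeR). In all, 4 of the 5 tested genes were higher with no overlap of the groups, beside 40.9% of all genes tested (39.0% were lower with no overlap). din-1 was called higher under upper-quartile factors (0.75 on the log2 scale, adjusted p = 0.00021), under library totals (0.57, adjusted p = 0.00065) and without sams-1 D7 replicate 3 (adjusted p = 0.0070, range over all its alternatives, in either direction, 1.0e-07 to 0.53).

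dhs-16, a dehydrogenase gene of the hormone branch, measured 1.71, 0.43 and 1.53 CPM in sams-1 D7 libraries, against 2.87, 1.17 and 1.31 CPM in WT D7 libraries. The groups overlapped, and the fitted difference was -0.43 ± 0.56 (log2, SE), with an edgeR adjusted p of 0.50. The other 3 genes were too low to test. daf-9, the cytochrome gene of the last step, had 4, 2 and 4 counts in sams-1 D7 and 1, 2 and 1 counts in WT D7 libraries, a ratio of 2.79 with a 95% counting interval of 0.81 to 12.2. ncr-2 had 9, 4 and 8 counts in sams-1 D7 and 7, 3 and 2 counts in WT D7 libraries, a ratio of 1.96 with an interval of 0.92 to 4.36. Both intervals include 1, so a difference was not detectable at this depth. Two-sided exact permutation tests on the CPM of 3 against 3 libraries, which cannot go below p = 0.1, gave 0.1 for daf-9, 0.2 for ncr-2 and 1.0 for hsd-1.

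The same question was asked of young adults. At D1, of the 6 genes tested, 4 were higher in sams-1 and none was lower: daf-9, daf-36, ncr-1 and ncr-2. Of all 12956 genes tested, 17.4% were called higher and 16.8% lower, and the all-gene median on the log2 scale was 0.58. In genes, 2259 were higher and 2172 lower, against 3470 and 928 under upper-quartile factors (all-gene median 1.16), 2577 and 1357 under library totals (0.76) and 1861 and 2537 under DESeq2's size factors (0.34). By an unadjusted p under 0.05, 5 of the 6 were higher and 0 lower. This count again lacks an all-gene share and shows nothing particular to these genes. DESeq2 called 5 higher and 0 lower, beside 2854 higher and 3676 lower of all 12956 genes.

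daf-9 had 23, 24 and 24 counts in sams-1 D1 libraries (3.25, 4.43 and 4.06 CPM), against 0, 0 and 1 counts in WT D1 libraries. The sams-1 libraries were nearly equal, and in WT the gene was at the limit of detection. The ratio of the summed counts was 68.8, with a 95% counting interval of 11.9 to 2753. The edgeR adjusted p was 0.0034, and its fitted log2 fold change of 5.49 ± 0.86 (SE) depends on the prior count, since WT had 1 count in all.

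ncr-2, the second transporter gene, measured 5.37, 6.84 and 5.08 CPM in sams-1 D1 libraries, against 0.30, 0.97 and 1.00 CPM in WT D1 libraries. The groups stood well apart. Its edgeR log2 value was 2.71 ± 0.56 (SE), with an adjusted p of 0.0067. ncr-1 measured 24.7, 34.7 and 44.2 CPM in sams-1 D1 libraries, against 8.90, 3.73 and 6.38 CPM in WT D1 libraries. It too did not overlap between the groups, and it was higher by 2.25 ± 0.42 on the log2 scale (SE, edgeR adjusted p = 0.0050).

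daf-36 measured 31.0, 53.8 and 19.8 CPM in sams-1 D1 libraries, against 6.49, 4.21 and 4.39 CPM in WT D1 libraries. The sams-1 libraries spread widely but all lay above WT. The difference was 2.60 ± 0.45 on the log2 scale (SE), with an edgeR adjusted p of 0.0042.

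daf-12 measured 39.3, 75.4 and 99.7 CPM in sams-1 D1 libraries, against 19.01, 15.2 and 26.7 CPM in WT D1 libraries. The groups did not overlap. Its log2 difference of 1.61 ± 0.41 (SE) missed the threshold (adjusted p = 0.0128 by edgeR). It passed under DESeq2 (adjusted p = 0.0045), under upper-quartile factors (0.0074) and in the fit of all 12 libraries (0.00060), within a range over all its alternatives of 0.00060 to 0.99.

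dhs-16 measured 0.71, 5.36 and 7.96 CPM in sams-1 D1 libraries, against 0, 0 and 0.20 CPM in WT D1 libraries. All 3 sams-1 libraries were above WT, with replicate 1 the lowest of them. The summed counts were 81 in sams-1 and 1 in WT, a ratio of 78.4 with a 95% counting interval of 13.7 to 3136. That interval leaves out the spread between libraries, which ran from 5 to 47 counts in sams-1. The gene did not reach the count minimum for testing, and the two-sided exact permutation test gave the smallest p it allows, 0.1. It was tested and called without sams-1 D1 replicate 1 (adjusted p = 0.0022, range over its alternatives 0.0010 to 0.044).

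din-1 measured 101, 292 and 291 CPM in sams-1 D1 libraries, against 160, 192 and 152 CPM in WT D1 libraries. Replicate 1 of sams-1 was the lowest of all 6 libraries while the other two were the highest, and the edgeR log2 value was 0.24 ± 0.39 (SE), with an adjusted p of 0.60. Across the 6 tested genes, 5 were higher in sams-1 with no overlap, beside 45.0% of all genes tested (30.3% were lower with no overlap).

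The set of genes called at D1 changed whichever library was left out. Without WT D1 replicate 1 or 3, or without sams-1 D1 replicate 3 or 5, none of the 8 genes was called, although the adjusted p of the 4 genes stayed at or below 0.031 and their direction held. Without WT D1 replicate 5 daf-9 alone was called, beside 1289 higher and 1102 lower of all 14017 genes tested. Without sams-1 D1 replicate 1 daf-9, daf-36, ncr-1, daf-12 and dhs-16 were called while ncr-2 was not. In that fit 2705 of all 13721 genes were called higher and 3694 lower. Without that replicate the log2 values were 5.46 for daf-9, 2.53 for daf-36, 2.29 for ncr-1, 2.60 for ncr-2, 1.74 for daf-12 and 0.45 for din-1, close to those with it for all but din-1. The number of genes called in the whole table moved the same way, between 0 and 2705 higher and between 0 and 3694 lower. At D7 daf-36, daf-12 and ncr-1 were called whichever library was left out.

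**Figure D2:**
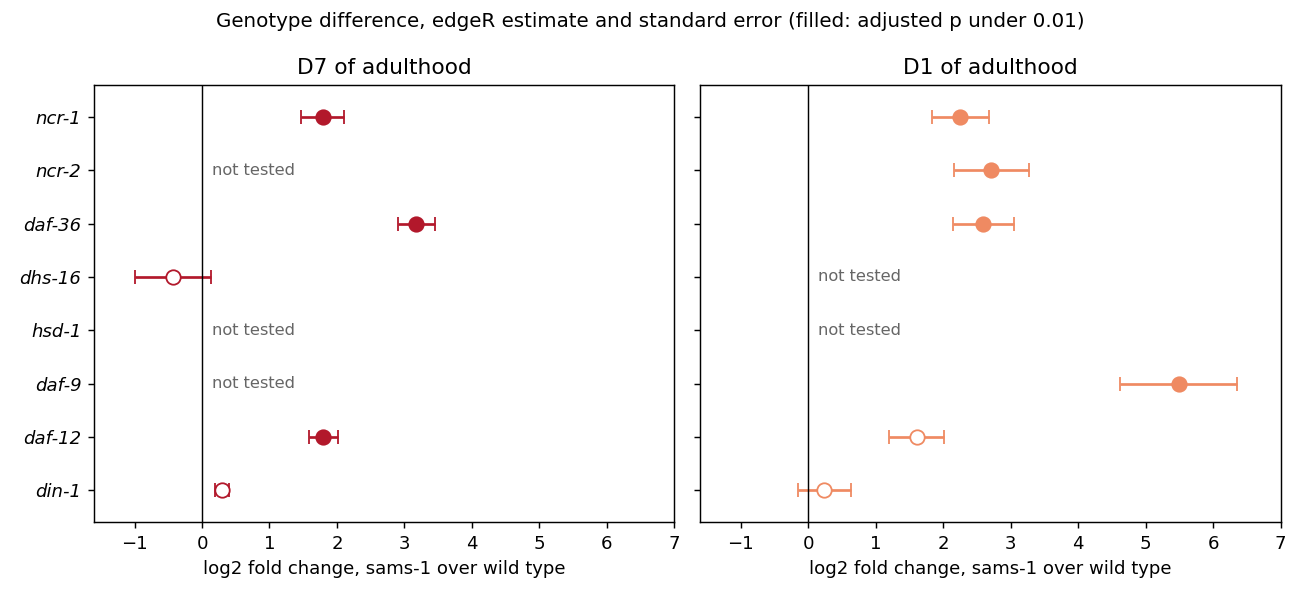
Log2 fold change of sams-1 over WT (x axis) for each gene (y axis) at D7 (left) and D1 (right), with the edgeR standard error as bars and filled points for adjusted p under 0.01. daf-36 and ncr-1 are filled at both ages, at 3.18 and 1.79 at D7 and 2.60 and 2.25 at D1, while daf-12 is filled at D7 and open at D1.

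Whether the genotype difference differed between the ages was tested as an interaction over all 12 libraries. It passed for 0 of the 7 genes tested, beside 0.0141% of all 14193 genes higher and 0.0141% lower. By an unadjusted p under 0.05 there were 3 genes, all with a smaller difference at D7. The all-gene share at that limit was not computed, so this count shows nothing particular to these genes. DESeq2 gave these 3 no adjusted p and called 0 of the other 4, beside 263 higher and 210 lower of all genes. The 3 genes were dhs-16 (log2 difference -6.41 ± 1.49, SE, edgeR adjusted p = 0.057), daf-9 (-4.26 ± 1.22, adjusted p = 0.093) and ncr-2 (-1.97 ± 0.83, adjusted p = 0.22). The values of dhs-16 and daf-9 each rest on 1 count in all of WT D1. Without sams-1 D1 replicate 1 the value of dhs-16 passed (adjusted p = 0.0028, range over its alternatives 0.0028 to 0.16), and over all genes 1674 then passed higher and 313 lower, against 2 and 2 with all libraries. For daf-36 the difference of the differences was 0.32 ± 0.53 (adjusted p = 0.77) and for ncr-1 -0.73 ± 0.55 (adjusted p = 0.49). A call of daf-9 and ncr-2 at D1 and none at D7 is thus not shown to be a difference between the ages, nor does a missed threshold here show that the ages were alike.

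The comparison of ages within each genotype uses the same libraries again. In sams-1, daf-9 fell to 0.76, 0.43 and 0.61 CPM at D7, against 3.25, 4.43 and 4.06 CPM at D1. The ages did not overlap, and edgeR gave a log2 value of -2.65 ± 0.59 (SE, adjusted p = 0.0083), the only call among 7 genes tested, beside 6.34% of all genes called lower and 3.29% higher. This call was lost without any 1 of 10 of the 12 libraries, and held without WT D1 replicate 1 or replicate 5 (adjusted p 0.0058 to 0.052 over the 12). ncr-2 had 1.71, 0.86 and 1.22 CPM at D7, against 5.37, 6.84 and 5.08 CPM at D1, with no overlap and a log2 difference of -2.16 ± 0.54 (SE) that missed the threshold (adjusted p = 0.0128 by edgeR). dhs-16 overlapped between the ages (-1.88 ± 0.82, adjusted p = 0.10), as did ncr-1 (0.61 ± 0.38, adjusted p = 0.24). DESeq2 called 2 of the genes lower with age in sams-1, beside 1742 lower and 1372 higher of all 14193 genes. With no overlap between the ages there were 2 lower and 0 higher among the 7, beside 22.8% of all genes lower and 18.5% higher.

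In WT, none of the 7 genes was called between the ages by edgeR, beside 2.94% of all genes called higher and 2.94% lower. DESeq2 called 0 of them, beside 661 higher and 1242 lower of all genes. By an unadjusted p under 0.05 there were 2 genes, both higher at D7. No all-gene share was computed for that limit, so the count has no background to be read against. ncr-1 measured 24.0, 10.3 and 13.9 CPM at D7, against 8.90, 3.73 and 6.38 CPM at D1 (log2 fold change 1.34 ± 0.41, SE, adjusted p = 0.042). dhs-16 had 18, 7 and 8 counts at D7, against 0, 0 and 1 counts at D1, a ratio of 32.0 with a 95% counting interval of 5.36 to 1302 (adjusted p = 0.029). With din-1, 3 of the 7 genes were higher at D7 with no overlap, beside 25.7% of all genes tested (14.7% were lower with no overlap). daf-12 and daf-36 overlapped between the ages in both genotypes.

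Levels in whole worms depend on which tissues give the RNA, and fewer cells of a type and less RNA per cell cannot be told apart in such libraries. Markers of several tissues moved with the genotype. Of all genes, 35.6% were called higher and 29.4% lower at D7, and 17.4% and 16.8% at D1. Of 14 intestine markers, which include the brush border and transport genes nhx-2, pept-1 and ifb-2, 11 were higher in sams-1 at D7 and 12 at D1 (medians of 2.70 and 2.65 on the log2 scale), and their summed level was 3199 to 6509 CPM in sams-1 D7, against 792 to 1182 CPM in WT D7, and 2853 to 5383 CPM in sams-1 D1, against 796 to 1059 CPM in WT D1. All 20 germ line and oocyte markers were lower at D7 and 13 of them at D1 (medians -1.56 and -2.61). Their summed level was 7743 to 9310 CPM in sams-1 D7, against 26213 to 26940 CPM in WT D7, and 1786 to 6735 CPM in sams-1 D1, against 16548 to 24577 CPM in WT D1. Of 15 body wall muscle markers 14 were higher at D7 and 5 at D1, with sums of 4044 to 5441 CPM in sams-1 D7, against 1521 to 2183 CPM in WT D7, and 13711 to 16964 CPM in sams-1 D1, against 3537 to 6400 CPM in WT D1. Of 10 neuron markers 7 were higher at each age, with sums of 598 to 843 CPM in sams-1 D7, against 282 to 297 CPM in WT D7, and 532 to 750 CPM in sams-1 D1, against 244 to 298 CPM in WT D1. Of 7 somatic gonad markers, 6 were tested at D7, with 4 higher, and 7 at D1, with 3 higher. Without sams-1 D1 replicate 1 the D1 counts were 12 of 14 intestine markers higher, 20 of 20 germ line markers lower, 1 of 15 muscle markers, 2 of 10 neuron markers and 3 of 7 somatic gonad markers higher. In that fit 2705 of all 13721 genes were higher and 3694 lower. None of these lists had a marker at 0 in any group. Beyond the scalings given next, their part in the values of the 8 genes was not tested.

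The scale set by such markers turned the direction of several genes. When libraries were scaled on the intestine list at D7, daf-12 had a log2 fold change of -0.56, ncr-1 of -0.60 and din-1 of -2.05, while daf-36 stayed higher at 0.86 ± 0.37 (SE, edgeR adjusted p = 0.047). At D1 the same scale gave -1.01 for daf-12, -0.29 for ncr-1, -2.38 for din-1, 0.12 for daf-36, 0.23 for ncr-2 and 3.27 for daf-9 (adjusted p = 0.031). This scale put the median of all genes at -2.21 at D7 and -1.92 at D1, so the turned values of daf-12 and ncr-1 were still above that median. Scaled on the muscle list, daf-36 was called at D7 with 2.09, daf-12 and ncr-1 had 0.63 and 0.62 without a call, and din-1 was called lower with -0.83, beside a median of all genes at -0.99. Relative to the intestine markers daf-12 and ncr-1 were thus not higher in sams-1 at either age. None of the tested genes was called higher on this scale. At D1 the edgeR adjusted p was 0.84 for daf-36 and 0.76 for ncr-2. Under the 3 other scalings of the whole table daf-36, daf-12 and ncr-1 kept their direction at both ages, as did din-1 except under DESeq2's size factors at D1 (-0.039).

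**Figure D3:**
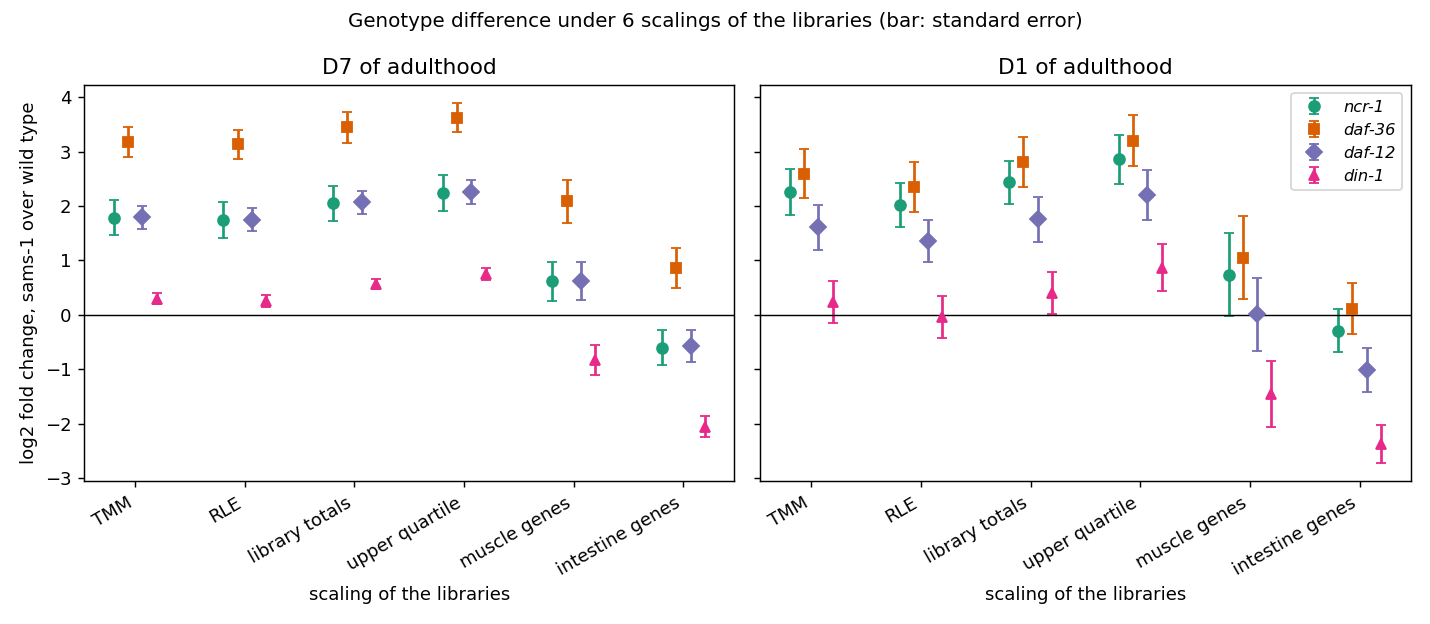
Log2 fold change of sams-1 over WT (y axis, bars are the standard error) of 4 genes under 6 ways of scaling the libraries (x axis), at D7 (left) and D1 (right). Under TMM, RLE, library totals and upper quartile daf-36, ncr-1 and daf-12 are above 0, and with intestine genes as the scale ncr-1, daf-12 and din-1 are below 0 at both ages.

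At D1 several epidermis genes were also higher in sams-1 libraries. Of 9 tested, 6 were called higher and 0 lower, beside 17.4% and 16.8% of all genes. They included the cuticle collagen genes rol-6 (469 ± 412 CPM in sams-1, against 1.84 ± 1.72 CPM in WT, SD, n = 3 each) and dpy-13 (2410 ± 2054 CPM in sams-1, against 15.2 ± 13.8 CPM in WT). Not called were nhr-23, which was lower with no overlap (-1.15 on the log2 scale, edgeR adjusted p = 0.016), col-19 (0.50) and elt-1 (0.14). The summed epidermis level was 3339 to 11455 CPM in sams-1 D1, against 844 to 1561 CPM in WT D1, and 363 to 637 CPM in sams-1 D7, against 205 to 244 CPM in WT D7. Of 8 sperm markers, 6 were tested at D7, with 3 higher and 1 lower, and 7 at D1, with 1 higher. The sperm markers summed to 283 to 334 CPM in sams-1 D1, against 28.7 to 237 CPM in WT D1. daf-9 is known to be expressed in the epidermis of larvae, and in these libraries it was highest in sams-1 D1, which had the highest epidermis sum. That group also had the highest sums of body wall muscle (13711 to 16964 CPM), sperm (283 to 334 CPM) and somatic gonad markers (249 to 317 CPM). Within sams-1 D1, daf-12 (39.3, 75.4 and 99.7 CPM), dhs-16 (0.71, 5.36 and 7.96 CPM) and the epidermis sum (3339, 8102 and 11455 CPM) stood in the same order over replicates 1, 3 and 5. So did ncr-1 (24.7, 34.7 and 44.2 CPM), while daf-9, daf-36, ncr-2 and din-1 did not. The order was not particular to the epidermis. Intestine (2853, 4845 and 5383 CPM) and neuron sums (532, 648 and 750 CPM) shared it. Germ line and yolk sums stood in the reverse order, and muscle, sperm and somatic gonad sums in neither. Without replicate 1 of sams-1, 6 of 10 epidermis genes were called higher and 1, nhr-23, lower (-1.07 on the log2 scale). There 1 of 7 sperm markers was higher, beside 2705 higher and 3694 lower of all 13721 genes tested. The part of the epidermis and sperm genes in the D1 values of daf-9, ncr-2, daf-12 and dhs-16 was not tested.

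The files also bear on which transcripts of a gene were present. The length that RSEM gives for a gene is the mean over its transcripts, weighted by their abundance. For daf-12 it was 2422, 2299 and 2548 bases in sams-1 D7 libraries, against 3083, 2759 and 3142 bases in WT D7 libraries. The groups did not overlap, and their means were 2423 ± 125 and 2995 ± 206 bases (SD, n = 3 each), a difference of -572 bases. The two-sided exact permutation test gave p = 0.1, the smallest it allows. The same was common among the 4814 tested genes with several annotated transcripts, of which 15.5% were shorter with no overlap at D7 and 9.74% longer. The annotation holds long daf-12 transcripts of 3592 to 3859 bases and short ones of 2085 to 2253 bases. At D1 the groups overlapped (2712 ± 329 bases in sams-1, against 2629 ± 369 bases in WT, exact p = 0.7).

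For din-1, which makes a short protein that works with DAF-12 and longer forms, the pattern lay at the other age. At D1 its mean length was 4528, 4827 and 3457 bases in sams-1 libraries, against 5096, 5300 and 4968 bases in WT libraries. The groups did not overlap, and replicate 5 of sams-1 was the shortest (difference of means -851 bases, two-sided exact permutation p = 0.1, beside 5.9% of genes shorter and 9.24% longer with no overlap at D1). At D7 they overlapped (5177 ± 218 bases in sams-1, against 5106 ± 273 bases in WT, exact p = 0.7). Without sams-1 D1 replicate 5 the difference at D1 was -444 bases.

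**Figure D4:**
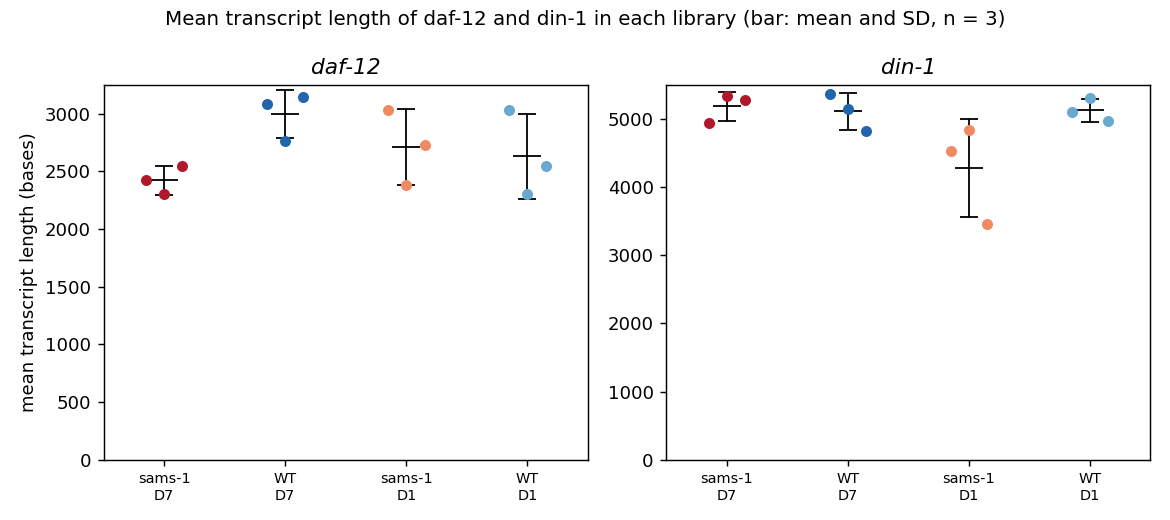
Mean transcript length in bases (y axis from 0) of daf-12 and din-1 in each library of the 4 groups, with the mean and SD as bars. The 3 sams-1 D7 libraries lie below the 3 WT D7 libraries for daf-12, and the 3 sams-1 D1 libraries lie below the 3 WT D1 libraries for din-1.

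Other genes of sterol handling and hormone signalling moved in part. Of 14 listed, 10 were tested, and at D7 4 were higher and 1 lower in sams-1, with a median of 0.50 on the log2 scale, beside 0.13 over all genes, of which 35.6% were called higher and 29.4% lower. nhr-8, a nuclear receptor closely related to DAF-12 and known for a role in cholesterol balance, had 67.03 ± 4.70 CPM in sams-1 D7, against 8.10 ± 1.03 CPM in WT D7 (SD, n = 3 each, log2 value 3.12, edgeR adjusted p = 4.1e-06). heh-1, a homolog of the sterol carrier NPC2, had 180 ± 10.5 CPM in sams-1 D7, against 81.4 ± 7.62 CPM in WT D7. strm-1, which encodes a sterol methyltransferase that draws on S-adenosylmethionine, had 5.77 ± 0.44 CPM in sams-1 D7, against 2.83 ± 0.28 CPM in WT D7 (log2 fold change 1.10, adjusted p = 0.0081). Exons of nhr-8 share 47 bases with F33D4.6 and those of strm-1 26 bases with mrpl-30, both on the other strand. At D1 3 of the 10 were higher and 1 lower (median 1.41, beside 0.58 over all genes), beside 17.4% and 16.8% of all genes, with nhr-8 at 2.24 (adjusted p = 0.0035). Without sams-1 D1 replicate 1 there were 4 higher and 1 lower, with nhr-8 at 2.35. The hsd-1 relatives hsd-2 and hsd-3 had no count in any WT library. hsd-2 had 4, 0 and 0 counts in sams-1 D7 and 21, 2 and 0 counts in sams-1 D1 libraries. Summed over the group, hsd-2 at D1 was 7.42-fold above a floor of 3 counts over WT, and 1 library held nearly all of it.

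DAF-12 acts on the let-7 family of microRNAs and through them on the timing genes. At D7, 4 of 9 tested genes of this group were higher and 2 lower in sams-1, beside 35.6% and 29.4% of all genes. lin-14 had 67.8 ± 26.3 CPM in sams-1 D7, against 12.1 ± 1.85 CPM in WT D7 (log2 fold change 2.56, adjusted p = 5.6e-05 by edgeR), and its exons hold small nucleolar RNA genes that share 108 and 99 bases with it. lin-41, a let-7 target that is also made in the germ line, had 145 ± 39.7 CPM in sams-1 D7, against 551 ± 9.41 CPM in WT D7 (log2 fold change -1.84, adjusted p = 2.2e-05), and 70.4 ± 52.5 CPM in sams-1 D1, against 509 ± 178 CPM in WT D1 (-3.02, adjusted p = 0.0051). At D1 1 of 9 was higher and 1 lower, beside 17.4% and 16.8% of all genes, and without sams-1 D1 replicate 1 there were 4 of 10 higher and 2 lower, with lin-41 at -3.97. The let-7 gene, whose annotated span is that of the long primary transcript, had 25, 7 and 14 counts in sams-1 D7 and 2, 44 and 58 counts in sams-1 D1 libraries, and 0 in all WT libraries. Summed over the group, let-7 was 17.1-fold at D7 and 33.6-fold at D1 above a floor of 3 counts over the WT group. The D1 value rests on replicates 3 and 5, since replicate 1 had 0.28 CPM, beside a WT D1 floor of 0.168 CPM. The span shares 111 exon bases with C05G5.7 on the same strand and 138 with C05G5.8 on the other, so its reads are uncertain. lin-4, mir-48, mir-84 and mir-241 had no count in any library.

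**Figure D5:**
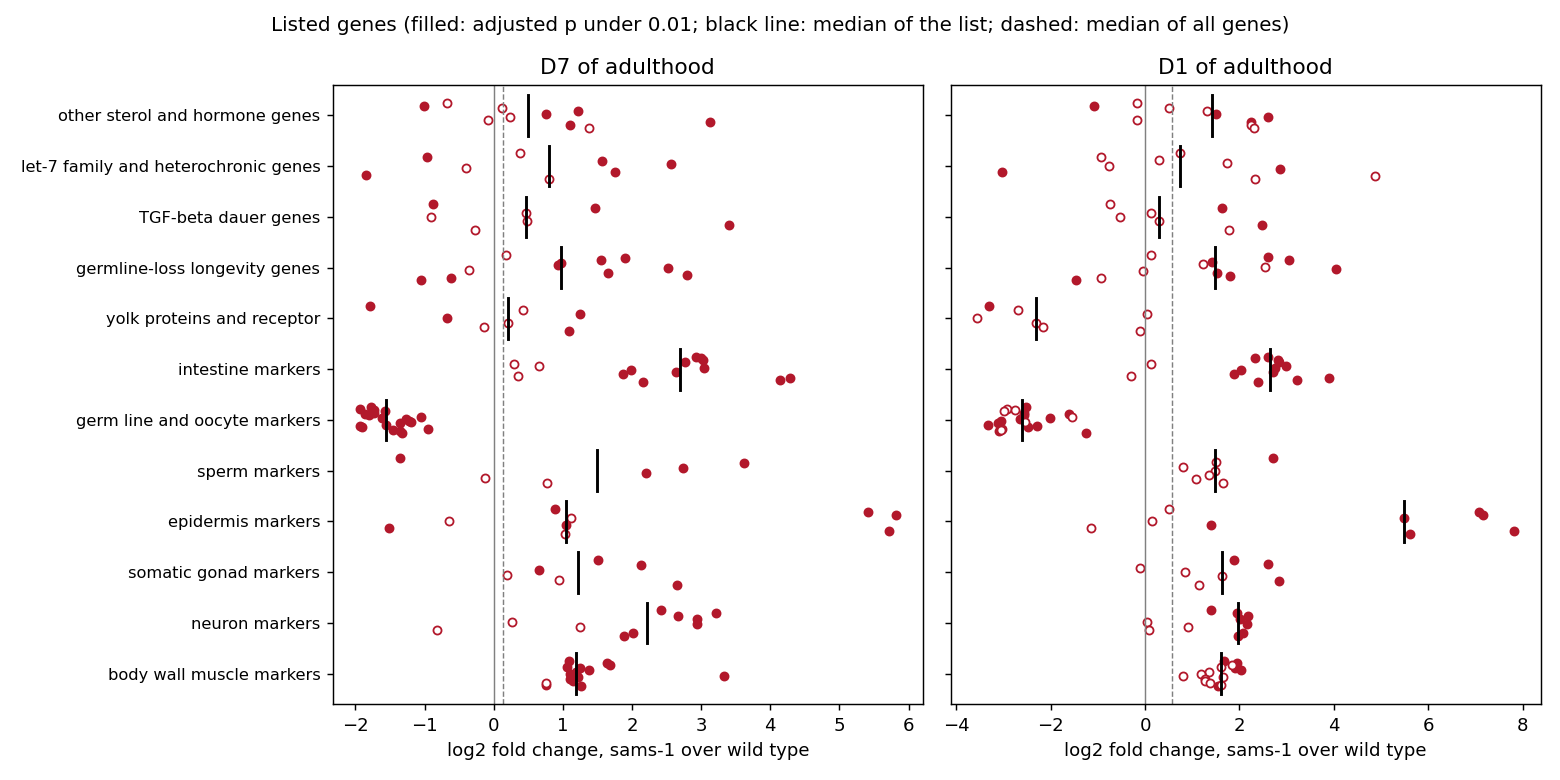
Log2 fold change of sams-1 over WT (x axis) of each tested gene in 12 lists (y axis) at D7 (left) and D1 (right), filled where adjusted p is under 0.01, with the median of each list as a black line and that of all genes as a dashed line. All 20 germ line and oocyte markers lie below 0 at both ages, 11 of 14 intestine markers are filled above 0 at D7, and let-7 is left out because WT libraries had no count.

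The genes most like each member over the 12 libraries were sought among 8481 genes with a mean of at least 10 CPM, by Pearson r of log2 CPM. These values describe libraries that share groups, depth and tissue makeup, and most genes moved with genotype. For daf-12 they were fozi-1 (r = 0.99), nhr-45 (0.98) and dve-1 (0.98), for ncr-1 yap-1, rrf-2 and W04B5.3 (0.98 each), and for daf-36 F17C11.6, F42A10.9 and K05F1.10 (0.98 each). For daf-9 they were elo-1, a fatty acid elongase gene (0.98), swt-3 (0.97) and swt-7 (0.97), for ncr-2 Y73C8B.3 (0.96), tyr-2 (0.96) and col-91 (0.94), and for dhs-16 ptr-4 (0.97), Y64G10A.7 (0.95) and Y65B4BM.3 (0.94). din-1 had the least close neighbours, bed-3 (0.89), dpy-22 (0.88) and T28F4.1 (0.86).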

How the data were processed

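Per the study's methods and the submitters' processing notes, reads were trimmed with Trimmomatic 0.39, aligned with STAR to the ws245 worm genome and quantified per gene with RSEM 1.3.3. The authors deposited, for each library, expected counts (estimated counts, up to 2.41% of them not whole), TPM and a mean transcript length and effective length per gene. FPKM values were not used. Expected counts were rounded and tested with edgeR 4.0.16 (R 4.3.3), with TMM factors and the default count filter, within each age on 6 libraries (4 residual degrees of freedom) and for age and interaction on 12 (8). Adjusted p is Benjamini-Hochberg over all genes tested, called under 0.01. The study used DESeq2 1.38 with a 2-fold limit, and here DESeq2 1.42.0 and limma 3.58.1 on log2(TPM + 1) were alternatives. SE is the log2 fold change over the root of F. Counting intervals are exact at 95% for counts pooled over a group and leave out the spread between libraries. The fits were tested on simulated data, where median estimates lay near the true changes. The fits at D1 and of the interaction called none of the changed genes. At D1 the simulation changed 99 genes by 1 and 91 by 2 on the log2 scale, among 12603. The real D1 fit called 2259 higher and 2172 lower. As the adjustment depends on that share, the simulation does not show what the D1 fit could call. Members and gene lists were chosen with earlier results of these data known. Genes named are the members, up to 3 of each other list with the largest change called at D7, and 3 most-like genes per member, and others are named to account for a list or counts of 0. Of the listed symbols 2, daf-21 and phi-62, did not match. Planned descriptions of promoter and protein sequences were not run. Deviations of same-numbered replicates from their group means correlated at r between -0.32 and 0.20, with 3 of 12 pairs over 0.1. Between the genotypes at D1 all were positive (0.081 to 0.20), so pairing is not excluded. No block was used in the main fits.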

Additional observations from a re-analysis of the deposited data

How the results depend on the processing

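The 3 calls at D7 held whichever library was left out and under every other setting except the 2 marker scalings. On the muscle scale 1 gene was called higher and 1 lower, and on the intestine scale 0 higher and 2 lower (dhs-16 and din-1). Directions that turned at D7 were daf-12 (-0.56), ncr-1 (-0.60) and din-1 (-2.05) on the intestine scale, din-1 (-0.83) on the muscle scale, and dhs-16 under upper-quartile factors (0.025) and with 1 library left out (-0.72 to 0.031). At D1, 1 gene was called higher on the muscle scale, and 0 higher and 1 lower on the intestine scale, and leaving out 1 library gave 0 to 5 called higher. Directions that turned at D1 were daf-12 (-1.01) and ncr-1 (-0.29) on the intestine scale, and din-1 under DESeq2's size factors (-0.039), DESeq2 (-0.039), no count filter (-0.016), the muscle scale (-1.45), the intestine scale (-2.38) and 1 library left out (-0.027 to 0.45). Of the genes lower with age in sams-1, 1 by edgeR, there were 2 by DESeq2 and 2 by limma, and 0 under DESeq2's size factors, library totals, either marker scale, no count filter and the replicate block, and 0 to 2 with 1 library left out. On the muscle scale 4 genes were called higher with age in sams-1 and 2 in WT, beside 8116 and 2861 of all 14193 genes. Under TMM 10 of the 15 muscle markers were themselves called lower with age in sams-1 and 4 in WT. The interaction gave 0 to 1 gene lower with 1 library left out. The fitted age changes of daf-12, daf-36 and din-1, which did not pass the test under TMM, took either sign across settings, and passed it in sams-1 on the muscle scale (1.66, 1.81 and 1.83). The cause of these turns was not tested.

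The replicate block (numbers 1, 3 and 5) took away the call of ncr-2 at D1 (log2 2.79, adjusted p = 0.014) and of daf-9 between ages in sams-1 (-2.64, adjusted p = 0.019), and left 3 genes called at D7 and 3 at D1. Pairing by number is neither shown nor excluded (r of 0.081 to 0.20 between same-numbered libraries across genotypes at D1). Whether these lost calls mark a weaker effect was not tested.

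Counts over all genes that moved by more than 1.5 times were, at D7, 2003 lower under upper-quartile factors, against 3597, with 1858 higher and 6034 lower on the muscle scale and 293 and 8027 on the intestine scale. At D1, against 2259 higher and 2172 lower, there were 3470 and 928 under upper-quartile factors, 1357 lower under library totals, 3676 lower under DESeq2, 4669 higher in the fit of all libraries, 475 and 5086 on the muscle scale and 95 and 6547 on the intestine scale, and 0 to 2705 higher and 0 to 3694 lower with 1 library left out. For the interaction there were 2 each way, against 263 and 210 by DESeq2, 21 and 4 on the muscle scale, 18 and 13 with no count filter, 16 and 6 by limma, 7 higher under DESeq2's size factors or library totals, 6 higher on the intestine scale and 1 each way with the block, and 0 to 1674 higher and 1 to 313 lower with 1 library left out. With age in sams-1 there were 467 higher and 900 lower, against 1372 and 1742 by DESeq2, 1462 higher by limma, 797 and 552 under library totals, 8116 and 152 on the muscle scale, 308 lower on the intestine scale and 300 and 509 with the block, and 156 to 3093 higher and 66 to 1477 lower with 1 library left out (3093 and 1400 without sams-1 D1 replicate 1). In WT there were 417 each way, against 661 and 1242 by DESeq2, 740 lower with no count filter, 239 lower by limma, 2861 higher on the muscle scale and 210 lower with the block, and 179 to 528 higher and 78 to 704 lower with 1 library left out. Low counts limit daf-9, dhs-16, hsd-1 and ncr-2, which had between 0 and 105 counts over a group.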

Other observations

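Genes of 2 neighbouring pathways were described beside the hormone genes. Worms that lose their germ line live long through DAF-12 and a set of intestinal factors. Of 13 listed genes of this set 11 were tested at D7, and 7 were higher and 2 lower in sams-1 (median 0.97 on the log2 scale, beside 0.13 over all genes, of which 35.6% were called higher and 29.4% lower). pha-4, a FoxA factor, had 21.6 ± 8.23 CPM in sams-1 D7, against 3.28 ± 0.57 CPM in WT D7 (log2 value 2.80, edgeR adjusted p = 7.9e-05). kri-1, which encodes an ankyrin repeat protein needed for this longevity, had 6.23 ± 1.85 CPM in sams-1 D7, against 1.13 ± 0.68 CPM in WT D7 (2.51, adjusted p = 0.00088). fard-1, a fatty acyl reductase gene, had 63.9 ± 14.9 CPM in sams-1 D7, against 18.1 ± 3.05 CPM in WT D7 (SD, n = 3 each). The 2 lower genes were tcer-1 (-1.05, edgeR adjusted p = 0.00027) and skn-1 (-0.62, adjusted p = 0.0016). daf-16 (0.17, adjusted p = 0.15) and nhr-49 (-0.36, adjusted p = 0.068) were not called. The lower gene at D1 was tcer-1 (-1.46, adjusted p = 0.0027). At D1 12 were tested, of which 6 were higher and 1 lower, the same counts as without sams-1 D1 replicate 1, beside 17.4% and 16.8% of all genes. The germ line and intestine markers moved in the same libraries, and their part in these values was not tested.

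The TGF-beta branch of dauer control acts upstream of the hormone. Of its 7 genes, 2 were higher and 1 lower in sams-1 at D7 (median 0.47, beside 0.13 over all genes, of which 35.6% were called higher and 29.4% lower). At D1 2 were higher and 0 lower (median 0.30, beside 0.58 over all genes), also without sams-1 D1 replicate 1. The ligand gene daf-7, made in sensory neurons, had 12.2 ± 6.10 CPM in sams-1 D7, against 1.19 ± 0.47 CPM in WT D7 (3.41, edgeR adjusted p = 0.00017). daf-14, a Smad gene, had 22.4 ± 1.74 CPM in sams-1 D7, against 8.53 ± 1.76 CPM in WT D7 (1.46, adjusted p = 0.00028). The receptor gene daf-1 had 31.9 ± 10.2 CPM in sams-1 D7, against 61.9 ± 3.01 CPM in WT D7 (-0.87, adjusted p = 0.0055). Its exons share 108 bases with col-99 on the other strand. At D1 daf-7 had 11.5 ± 2.62 CPM in sams-1, against 1.79 ± 0.81 CPM in WT (2.48, adjusted p = 0.0047).

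Of 6 yolk genes and the yolk receptor gene, 2 were higher and 2 lower in sams-1 at D7, beside 35.6% and 29.4% of all genes. At D1 0 were higher and 1 lower, and 5 lower without sams-1 D1 replicate 1. Between the ages 1 of the 7 was called higher at D7 in sams-1 and 0 in WT. vit-2 had 16750 ± 4076 CPM in sams-1 D7, against 7443 ± 538 CPM in WT D7 (1.25, edgeR adjusted p = 0.00020), and overlapped at D1. vit-3 had 489 ± 49.02 CPM in sams-1 D7, against 824 ± 115 CPM in WT D7 (-0.68, adjusted p = 0.0014). It is a close copy of other yolk genes and shares 171 exon bases with T27A10.8 on the other strand, so its reads are uncertain. vit-6 had 17795 ± 6231 CPM in sams-1 D7, against 8843 ± 947 CPM in WT D7 (1.08, adjusted p = 0.0021). The yolk receptor gene rme-2, expressed in oocytes, had 350.1 ± 79.9 CPM in sams-1 D7, against 1272 ± 39.2 CPM in WT D7 (-1.79, adjusted p = 1.4e-05). At D1 it had 148 ± 139 CPM in sams-1, against 1293 ± 363 CPM in WT (-3.29, adjusted p = 0.0074), and -4.57 on the log2 scale without replicate 1 of sams-1.

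The limits are few libraries, whole animals and unclear labels. With 3 libraries a group, the exact tests could not pass. Reads were assigned to transcripts by RSEM, so mean transcript lengths are estimates. sams-1 RNA was not lower in libraries labelled sams-1.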
